A study of Homo sapiens with 9 samples.

Results

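The genes described here are the sestrins SESN1, SESN2 and SESN3, the mTOR-restraining genes DDIT4 and PRKAB1, and the metabolic p53 targets TIGAR, TP53I3, FDXR, GLS2 and SCO2. They were chosen by name, with no measured value in the rule but with earlier results of these data known. They are 10 of the 26475 gene symbols in the count table. All 10 had counts high enough to be tested, as did 16417 genes in total. A375 is a human melanoma cell line that carries a BRAF mutation, and every library came from this 1 line. TP-472 is a chemical inhibitor that binds the bromodomains of BRD9 and BRD7. Cells were exposed for 24 h to the vehicle DMSO, to 5 µM TP-472 or to 10 µM TP-472, and mRNA was sequenced from 3 biological replicates per condition. No untreated cells and no other compound are among the samples used here.

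Sestrins are stress-induced proteins that restrain mTORC1, the kinase complex that couples amino acids and growth signals to protein synthesis. SESN1 and SESN2 bind GATOR2, a complex of the amino acid sensing arm of mTORC1, and SESN2 is a leucine sensor. SESN1 is best known as a p53 target, SESN2 as a target of both p53 and ATF4, the transcription factor of amino acid and endoplasmic reticulum stress, and SESN3 as a FOXO target. DDIT4, also called REDD1, restrains mTORC1 through the TSC complex and is induced by hypoxia, by ATF4 and by p53. PRKAB1 is a regulatory beta subunit of the energy sensor AMPK. p53 also controls enzymes of metabolism. TIGAR lowers fructose-2,6-bisphosphate and with it glycolysis. TP53I3 is a quinone oxidoreductase, FDXR passes electrons from NADPH to ferredoxin in mitochondria, GLS2 is a mitochondrial glutaminase, and SCO2 delivers copper to cytochrome c oxidase.

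Of the 10 genes, 9 had higher mRNA at 10 µM TP-472 than in DMSO, by 1.62-fold (SESN3) to 5.53-fold (GLS2), and DDIT4 was 1.52-fold lower. SESN3 and GLS2 did not pass the test at 10 µM when DMSO replicate 1 or DMSO replicate 3 was left out. GLS2 had the lowest counts, and its 95% confidence interval at 10 µM ran from 1.84-fold to 16.6-fold. At 5 µM, 6 genes rose (SESN1, SESN2, TIGAR, TP53I3, FDXR and SCO2) and DDIT4 fell. SESN3, PRKAB1 and GLS2 did not pass the test at 5 µM. Between the doses, SESN2, PRKAB1, TIGAR, TP53I3 and FDXR were higher at 10 µM than at 5 µM, and SESN1, SESN3, DDIT4, GLS2 and SCO2 did not pass the test. These calls are from edgeR's quasi-likelihood test on all 9 libraries at a Benjamini-Hochberg adjusted p under 0.05 over all genes tested. Among all genes tested, 4.40% were called higher and 5.81% lower at 5 µM, 16.4% higher and 18.0% lower at 10 µM, and 2.87% higher and 5.53% lower at 10 µM against 5 µM. The median log2 fold change of the 10 genes was 1.36 at 5 µM, 1.65 at 10 µM and 0.43 between the doses, beside 0.0054, 0.011 and 0.0012 over all genes tested. Both doses were compared with the same DMSO libraries, so the results at 5 µM and at 10 µM are not independent of each other. In bulk RNA, a change in the share of cells that express a gene and a change in RNA per cell cannot be told apart.

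**Figure D1:**
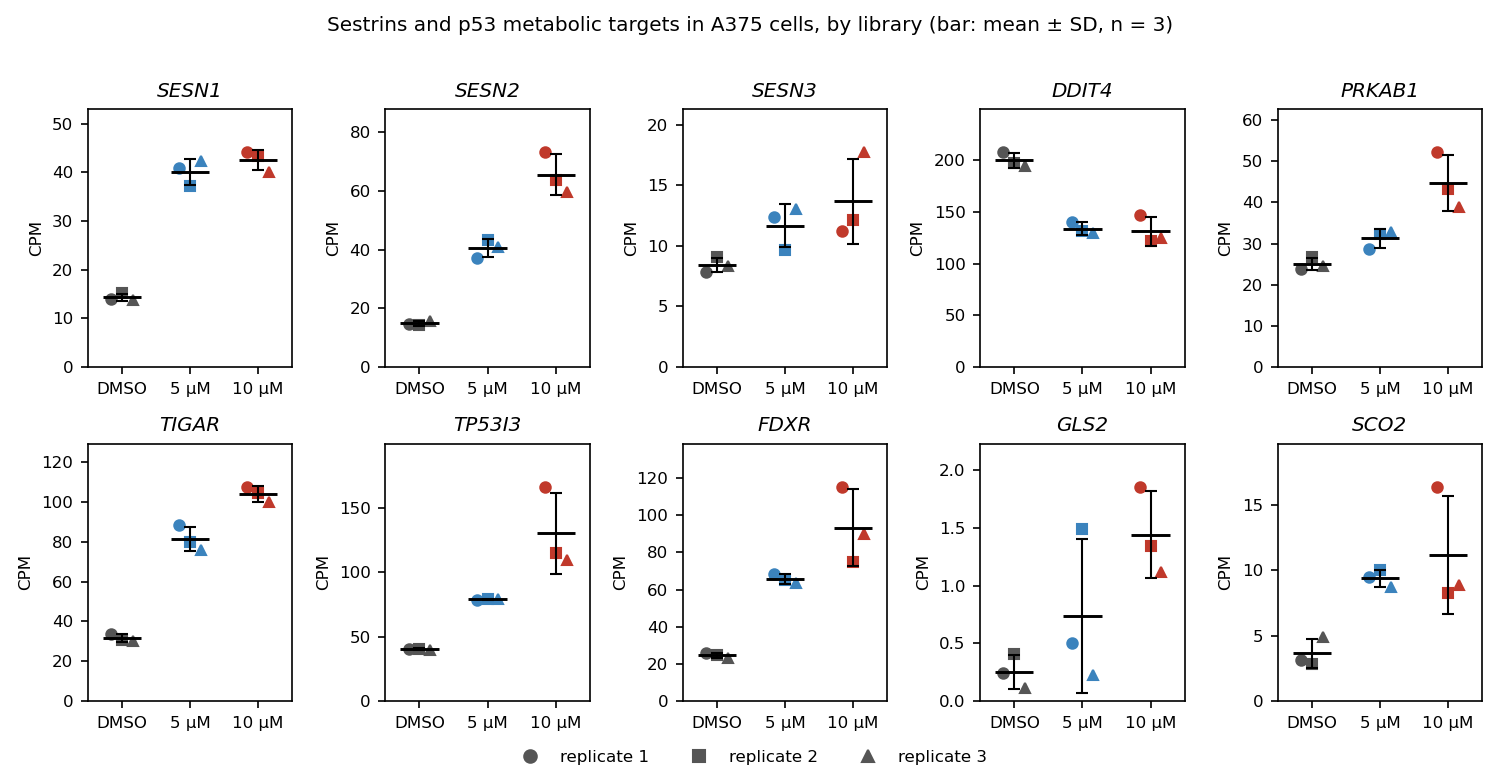
Counts per 1000000 counts of the library (CPM, linear axis from 0) of each of the 10 genes in the 3 libraries of each group, with a marker shape per replicate number, the mean as a long bar and the SD as an error bar. For SESN1 the doses overlapped each other. For SESN2, PRKAB1, TIGAR, TP53I3 and FDXR the groups did not overlap, and each dose lay above the group before it. DDIT4 sat lower at both doses than in DMSO.

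The libraries held 42483091 to 51298130 expected counts each, and symbols of ribosomal RNA and of the RN7SL and RN7SK noncoding RNAs took 8.22% to 19.9% of them. Values below are counts per 1000000 counts of the library (CPM), with library sizes scaled by TMM. The 10 µM replicate 1 library stood apart: splines of transcript length and GC took up 5.56% of the variance of its log2 deviations from its group mean, against at most 2.58% in the other libraries. It was the highest library of its group for 9 of the 10 genes, and for 43.4% of all genes tested. Cell identity was checked with marker lists. MLANA, TYR, TYRP1 and DCT, 4 of 9 melanocyte lineage markers, were under 1 CPM in DMSO. The summed CPM of that list was 456 to 477 in DMSO, at 5 µM 459 to 469 and at 10 µM 412 to 459. The 3 markers of the dedifferentiated melanoma state (AXL, NGFR and SOX9) summed to 632 to 645 in DMSO, at 5 µM to 478 to 482 and at 10 µM to 454 to 526. Of other cell types, the summed leukocyte markers (3 genes) were at most 1.55 CPM, with PTPRC, CD3E and CD14 each under 1 CPM in DMSO, the endothelial markers (3 genes) at most 3.70 and the fibroblast markers (3 genes) at most 7.14. The 4 keratinocyte markers summed to 49.4 to 56.7 CPM in DMSO, at 5 µM to 62.0 to 65.9 and at 10 µM to 67.1 to 97.7, with KRT5 and KRT1 under 1 CPM in DMSO. Their part in the changes below was not tested.

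The promoters of SESN1 and FDXR are shown because they hold the letters of a p53 half-site, that of DDIT4, the one gene that fell, because it holds the core ACGTG of a hypoxia response element, and that of SESN2 because it holds none of the motifs searched. Each sequence is the 250 bases before a RefSeq transcription start on GRCh38.p14, written 5′ to 3′ on the strand of the gene. Capitals mark the motif, which starts 49 bases before the start for SESN1, 11 bases before it for FDXR and 125 bases before it for DDIT4. The SESN1 sequence is chr6:109008989-109009238 on the minus strand, before the third of 3 listed starts, and the FDXR sequence is chr17:74872995-74873244 on the minus strand, before the first of 2. The DDIT4 sequence is chr10:72273674-72273923 and the SESN2 sequence chr1:28259268-28259517, both on the plus strand.
SESN1: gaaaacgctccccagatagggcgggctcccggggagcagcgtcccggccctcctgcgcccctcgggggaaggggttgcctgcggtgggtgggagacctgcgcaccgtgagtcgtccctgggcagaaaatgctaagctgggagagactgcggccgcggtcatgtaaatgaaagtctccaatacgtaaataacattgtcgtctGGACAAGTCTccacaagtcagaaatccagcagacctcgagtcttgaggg
FDXR: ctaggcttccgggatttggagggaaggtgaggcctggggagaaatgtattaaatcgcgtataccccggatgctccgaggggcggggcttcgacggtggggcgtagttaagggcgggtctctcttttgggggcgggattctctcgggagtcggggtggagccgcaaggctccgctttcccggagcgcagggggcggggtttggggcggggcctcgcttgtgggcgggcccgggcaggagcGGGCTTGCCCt
DDIT4: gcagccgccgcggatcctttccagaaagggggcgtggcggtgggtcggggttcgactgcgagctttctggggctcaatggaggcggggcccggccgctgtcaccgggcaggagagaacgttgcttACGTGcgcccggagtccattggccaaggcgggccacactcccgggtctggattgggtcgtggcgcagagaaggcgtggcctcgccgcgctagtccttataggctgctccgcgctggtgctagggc
SESN2: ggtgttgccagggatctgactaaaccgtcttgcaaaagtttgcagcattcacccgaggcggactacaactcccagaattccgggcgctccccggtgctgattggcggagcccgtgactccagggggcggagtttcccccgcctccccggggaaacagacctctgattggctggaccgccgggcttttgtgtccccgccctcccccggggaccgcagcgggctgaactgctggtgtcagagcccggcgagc

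The search covered both strands of windows of 250 bases before to 50 after each start, 12 windows for 9 of the 10 genes. The p53 half-site (10 letters, matched by its degenerate pattern) was in the windows of SESN1 and FDXR and in 6.63% of 35116 promoter windows. ACGTG was in 2 of the 12 windows, those of DDIT4, which fell, and TIGAR, which rose, and in 21.4% of all windows. The C/EBP-ATF core GATGCAA was in the SESN3 window, 29 bases after the start, and in 2.40% of all windows. The FOXO site GTAAACA was in none of the 12 windows and in 3.42% of all. No motif overlapped another in these windows. A match describes the letters of the window and is not a binding site.

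SESN1 (chromosome 6, 108986437 to 109094819, minus strand, GRCh38) rose at both doses. Its values were 14.1, 15.1 and 13.7 CPM in DMSO, 40.8, 37.2 and 42.4 at 5 µM, and 44.1, 43.4 and 40.1 at 10 µM. All 6 TP-472 libraries were above all 3 DMSO libraries, and the 2 doses overlapped. Among all genes tested, the 3 libraries of a dose were all above the 3 DMSO libraries for 23.7% at 5 µM and for 23.4% at 10 µM. SESN1 was 2.81-fold higher at 5 µM (log2 fold change 1.49, SE 0.09, edgeR adjusted p = 1.50e-05) and 2.98-fold higher at 10 µM (1.57, SE 0.09, adjusted p = 1.44e-06). The difference between the doses was 0.08 on the log2 scale (95% confidence interval −0.10 to 0.27, adjusted p = 0.578). Both rises were called under all 20 alternative settings.

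SESN2 (chromosome 1, 28259527 to 28282491, plus strand) started from a DMSO level close to that of SESN1 in CPM and rose at each dose. It had 14.5, 14.3 and 15.7 CPM in DMSO, 37.3, 43.3 and 41.0 at 5 µM, and 73.1, 63.8 and 59.6 at 10 µM. No library of one group overlapped a library of another. The rise was 2.73-fold at 5 µM (log2 fold change 1.45, SE 0.10, edgeR adjusted p = 3.18e-05) and 4.41-fold at 10 µM (2.14, SE 0.10, adjusted p = 6.21e-07). Between the doses SESN2 rose by 0.69 on the log2 scale (SE 0.10, adjusted p = 0.00251), and this call held under all 20 alternatives, with adjusted p up to 0.0251. Without 10 µM replicate 1 the step between the doses was 0.60. For 12.1% of all genes tested, all libraries at 10 µM were above all at 5 µM.

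The ratio of SESN2 to SESN1 was taken within each library, where library size cancels. It was 1.03, 0.947 and 1.15 in DMSO, 0.914, 1.16 and 0.966 at 5 µM, and 1.66, 1.47 and 1.49 at 10 µM. The 10 µM libraries lay above all others, and DMSO and 5 µM overlapped. The mean ratio was 1.04 ± 0.0993 in DMSO, 1.01 ± 0.132 at 5 µM and 1.54 ± 0.104 at 10 µM (SD, n = 3 each). A two-sided exact permutation test gave p = 0.1 for 10 µM against DMSO and for 10 µM against 5 µM, the smallest p that 3 libraries against 3 can give, and p = 0.8 for 5 µM against DMSO. At 5 µM SESN1 had reached 94.7% of its log2 change at 10 µM, and SESN2 67.7%.

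SESN3 (chromosome 11, 95165513 to 95232541, minus strand) moved less than the other sestrins. Its values were 7.87, 9.07 and 8.32 CPM in DMSO, 12.4, 9.66 and 13.0 at 5 µM, and 11.2, 12.1 and 17.7 at 10 µM. Both doses lay above DMSO with no overlap, the closest pair being 9.66 CPM at 5 µM and 9.07 in DMSO, and the doses overlapped each other. SESN3 rose 1.62-fold at 10 µM (log2 fold change 0.70, SE 0.18, edgeR adjusted p = 0.0155). At 5 µM the log2 fold change was 0.47 (SE 0.18, adjusted p = 0.147), and between the doses it was 0.23 (95% confidence interval −0.18 to 0.64, adjusted p = 0.477). The 10 µM call was lost without DMSO replicate 1 (adjusted p = 0.0626) or DMSO replicate 3 (adjusted p = 0.0566), and the 5 µM difference was called without 10 µM replicate 1 (adjusted p = 0.0184) or with only the 5 µM and DMSO libraries in the fit (adjusted p = 0.00509). Without 10 µM replicate 3 the difference between the doses was −0.0019.

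Per kilobase of the median coding transcript, the DMSO levels of the sestrins were 5.98 for SESN3, 5.26 for SESN1 and 4.30 for SESN2 (CPM per kb). Per kilobase of all annotated exons merged, they were 0.796 for SESN3, 2.79 for SESN1 and 4.30 for SESN2, so the order of the sestrins depends on the transcripts counted. At 10 µM the levels per kilobase of the median coding transcript were 19.0 for SESN2, 15.7 for SESN1 and 9.72 for SESN3, and per kilobase of merged exons 19.0, 8.31 and 1.29. SESN2 was first of the 3 at 10 µM on both lengths.

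**Figure D2:**
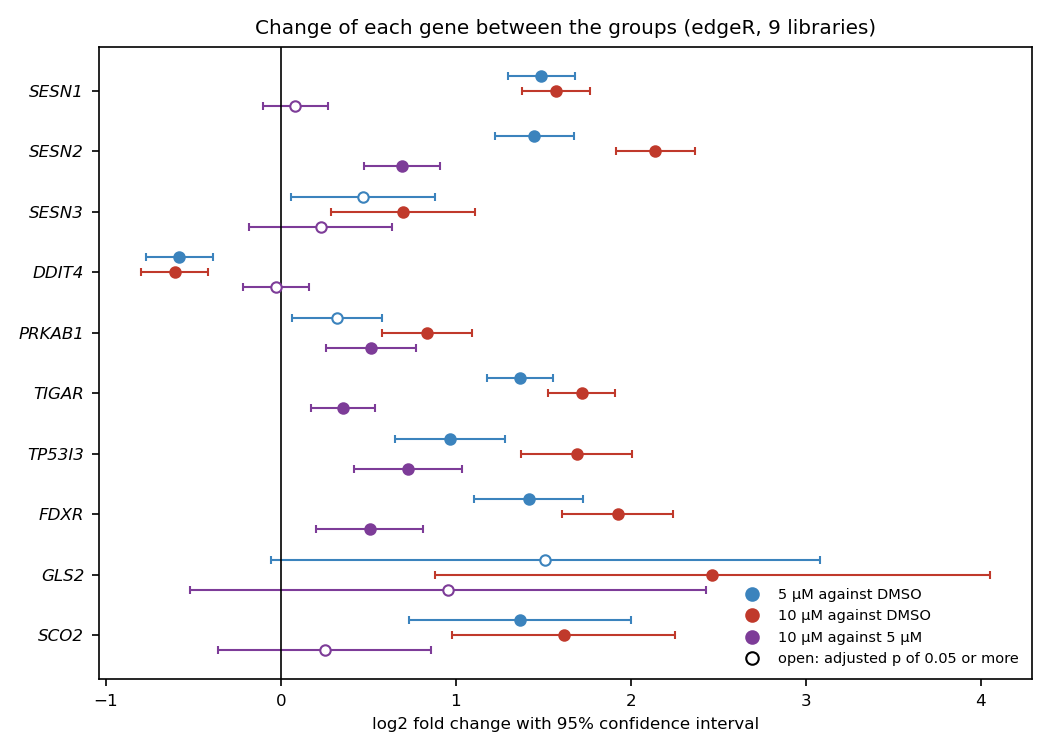
Log2 fold change of each gene (x axis) with its 95% confidence interval, for each dose against DMSO and for the doses against each other, with open points where the adjusted p was 0.05 or more. DDIT4 is the one gene left of 0 in both comparisons with DMSO, the 10 µM changes of the others run from 0.70 (SESN3) to 2.47 (GLS2), and GLS2 has the widest intervals.

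DDIT4 (chromosome 10, 72273920 to 72276036, plus strand) was the one gene of the 10 that fell. It had 208, 197 and 194 CPM in DMSO, 141, 131 and 129 at 5 µM, and 147, 121 and 125 at 10 µM. All 6 TP-472 libraries were below all 3 DMSO libraries, and the doses overlapped. Taken by dose, the 3 libraries all lay below DMSO for 25.0% of genes tested at 5 µM and 26.0% at 10 µM. DDIT4 was 1.49-fold lower at 5 µM (log2 fold change −0.58, SE 0.09, edgeR adjusted p = 0.00255) and 1.52-fold lower at 10 µM (−0.61, SE 0.09, adjusted p = 0.000527). The difference between the doses was −0.03 (95% confidence interval −0.22 to 0.16, adjusted p = 0.871), and its sign changed with upper-quartile scaling (0.0044) and when a single library was left out, namely replicate 1 at 5 µM (0.0062) or, at 10 µM, replicate 2 (0.021) or 3 (0.0062). An antisense gene, DDIT4-AS1, covers 41.2% of the exonic length of DDIT4 and is not a row of the count table. The libraries were strand-specific, but the sources used here do not say whether reads were counted by strand.

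PRKAB1 (chromosome 12, 119667753 to 119681630, plus strand) had 23.9, 26.8 and 24.6 CPM in DMSO, 28.7, 32.3 and 32.9 at 5 µM, and 52.2, 43.2 and 38.9 at 10 µM. The 3 groups did not overlap, and the step to 10 µM was the larger one. PRKAB1 rose 1.78-fold at 10 µM (log2 fold change 0.83, SE 0.12, edgeR adjusted p = 0.000463). At 5 µM the log2 fold change was 0.32 (SE 0.12, adjusted p = 0.117), 38.2% of that at 10 µM. This difference was called without 10 µM replicate 1 (adjusted p = 0.00327) and in a fit of only the 5 µM and DMSO libraries (adjusted p = 0.00187). Between the doses PRKAB1 rose by 0.52 (SE 0.11, adjusted p = 0.0242).

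TIGAR (chromosome 12, 4307763 to 4354593, plus strand) rose at both doses. It had 33.8, 30.7 and 30.1 CPM in DMSO, 88.1, 79.7 and 76.0 at 5 µM, and 108, 104 and 99.99 at 10 µM. The groups did not overlap. The rise was 2.58-fold at 5 µM (log2 fold change 1.36, SE 0.08, edgeR adjusted p = 1.91e-05) and 3.29-fold at 10 µM (1.72, SE 0.09, adjusted p = 7.41e-07), with 0.35 between the doses (SE 0.08, adjusted p = 0.0288). A coding gene model on the same strand, AC008012.1, covers 42.6% of the exonic length of TIGAR and is not a row of the count table.

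TP53I3 (chromosome 2, 24077433 to 24085861, minus strand) was tight within DMSO and 5 µM and spread at 10 µM. Its values were 40.8, 40.6 and 39.6 CPM in DMSO, 78.0, 79.1 and 79.4 at 5 µM, and 166, 115 and 109 at 10 µM. The groups did not overlap, and 10 µM replicate 1 was far above the other 10 µM libraries. TP53I3 rose 1.95-fold at 5 µM (log2 fold change 0.97, SE 0.14, edgeR adjusted p = 0.00223) and 3.23-fold at 10 µM (1.69, SE 0.14, adjusted p = 1.87e-05). Without 10 µM replicate 1 the 10 µM change was 1.47. Between the doses it rose by 0.72 (SE 0.14, adjusted p = 0.0122), or 0.51 without that library. The expected counts of TP53I3 were not whole numbers in 8 of 9 libraries.

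FDXR (chromosome 17, 74862497 to 74873031, minus strand) had 26.0, 24.6 and 23.1 CPM in DMSO, 68.4, 65.2 and 63.4 at 5 µM, and 115, 74.9 and 89.6 at 10 µM. The groups did not overlap, and the 10 µM libraries were again the most spread. FDXR rose 2.67-fold at 5 µM (log2 fold change 1.42, SE 0.14, edgeR adjusted p = 0.000282) and 3.80-fold at 10 µM (1.92, SE 0.14, adjusted p = 8.12e-06), and the 10 µM change was 1.74 without 10 µM replicate 1. The difference between the doses was 0.51 (SE 0.14, adjusted p = 0.0485).

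SCO2 (chromosome 22, 50523568 to 50526439, minus strand) had 3.16, 2.88 and 4.94 CPM in DMSO, 9.49, 10.0 and 8.72 at 5 µM, and 16.4, 8.29 and 8.90 at 10 µM. Both doses were above DMSO with no overlap, and 10 µM replicate 1 was far above the other 10 µM libraries, which overlapped those at 5 µM. SCO2 rose 2.58-fold at 5 µM (log2 fold change 1.36, SE 0.28, edgeR adjusted p = 0.0144) and 3.06-fold at 10 µM (1.62, SE 0.29, adjusted p = 0.00194). The 5 µM call was lost without DMSO replicate 1 (adjusted p = 0.0772), DMSO replicate 2 (0.0750), 5 µM replicate 1 (0.0542) or 5 µM replicate 2 (0.0588). The difference between the doses was 0.25 (95% confidence interval −0.36 to 0.86, adjusted p = 0.614), and −0.13 without 10 µM replicate 1, where the 10 µM change was 1.23. TYMP, thymidine phosphorylase, shares 24.9% of the exonic length of SCO2 on the same strand, and the expected counts of SCO2 were not whole numbers in 9 of 9 libraries. TYMP was not called at 5 µM (adjusted p = 0.494) or 10 µM (adjusted p = 0.887), and the summed CPM of both genes was 4.06 to 6.53 in DMSO, at 5 µM 9.50 to 10.9 and at 10 µM 8.998 to 18.5.

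GLS2 (chromosome 12, 56470944 to 56488414, minus strand) had the lowest counts of the 10 genes. It had 0.241, 0.412 and 0.118 CPM in DMSO, 0.504, 1.49 and 0.226 at 5 µM, and 1.86, 1.35 and 1.12 at 10 µM, from 5 to 90 expected counts. The 10 µM libraries were above all DMSO libraries, and 5 µM overlapped both other groups. The 10 µM rise was 5.53-fold (log2 fold change 2.47, SE 0.71, edgeR adjusted p = 0.0228), and it lost its call without DMSO replicate 1 (adjusted p = 0.0782) or DMSO replicate 3 (adjusted p = 0.0860). At 5 µM the log2 fold change was 1.51 (SE 0.70, adjusted p = 0.223) and rested on replicate 2, without which it was 0.49. The difference between the doses was 0.96 (95% confidence interval −0.52 to 2.43, adjusted p = 0.406), and it was 0.52 without 5 µM replicate 3 and 1.97 without 5 µM replicate 2. SPRYD4 on the opposite strand covers 77.1% of the exonic length of GLS2. Its level was 12.4 to 12.7 CPM in DMSO, at 5 µM 13.4 to 17.4 and at 10 µM 11.4 to 19.6, and it was not called at either dose (adjusted p = 0.310 and 0.240).

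Per kilobase of the median coding transcript, the DMSO levels of the metabolic and mTOR-restraining genes ran from DDIT4 (114 CPM per kb) through TP53I3 (33.9), PRKAB1 (15.004), FDXR (13.7), TIGAR (9.84) and SCO2 (3.69) to GLS2 (0.112). Per kilobase of merged exons the DMSO levels were 97.0 for DDIT4, 17.4 for TP53I3, 7.86 for TIGAR, 6.83 for FDXR, 4.02 for PRKAB1, 2.69 for SCO2 and 0.0621 for GLS2. DDIT4 and TP53I3 came first and SCO2 and GLS2 last on both lengths, and the order of PRKAB1, FDXR and TIGAR depended on the length used. At 10 µM TP53I3 was above DDIT4 per kilobase of the median coding transcript (109 and 75.1) and below it per kilobase of merged exons (56.3 and 63.8), so their order there depended on the length too. FDXR and TIGAR were above PRKAB1 at 10 µM on both lengths (52.2, 32.4 and 26.8 on the first, 25.9, 25.9 and 7.17 on the second).

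Among the 5 genes called higher at 10 µM than at 5 µM, SESN2 was the one called with any 1 library left out. FDXR was not called without any 1 of the DMSO or 5 µM libraries or 10 µM replicate 3 (adjusted p = 0.0674 to 0.165). TIGAR was not called without any 1 of the DMSO libraries, 5 µM replicates 2 or 3, or 10 µM replicate 2 (0.0509 to 0.129). PRKAB1 was not called without DMSO replicates 1 or 3 or any 5 µM library (0.0514 to 0.104), and TP53I3 not without any 1 of the 5 µM libraries (0.0573 to 0.0599). Each log2 difference kept its sign. Without 10 µM replicate 1 the differences were 0.60 for SESN2, 0.51 for TP53I3, 0.39 for PRKAB1, 0.33 for TIGAR and 0.32 for FDXR, and all 5 were called.

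**Figure D3:**
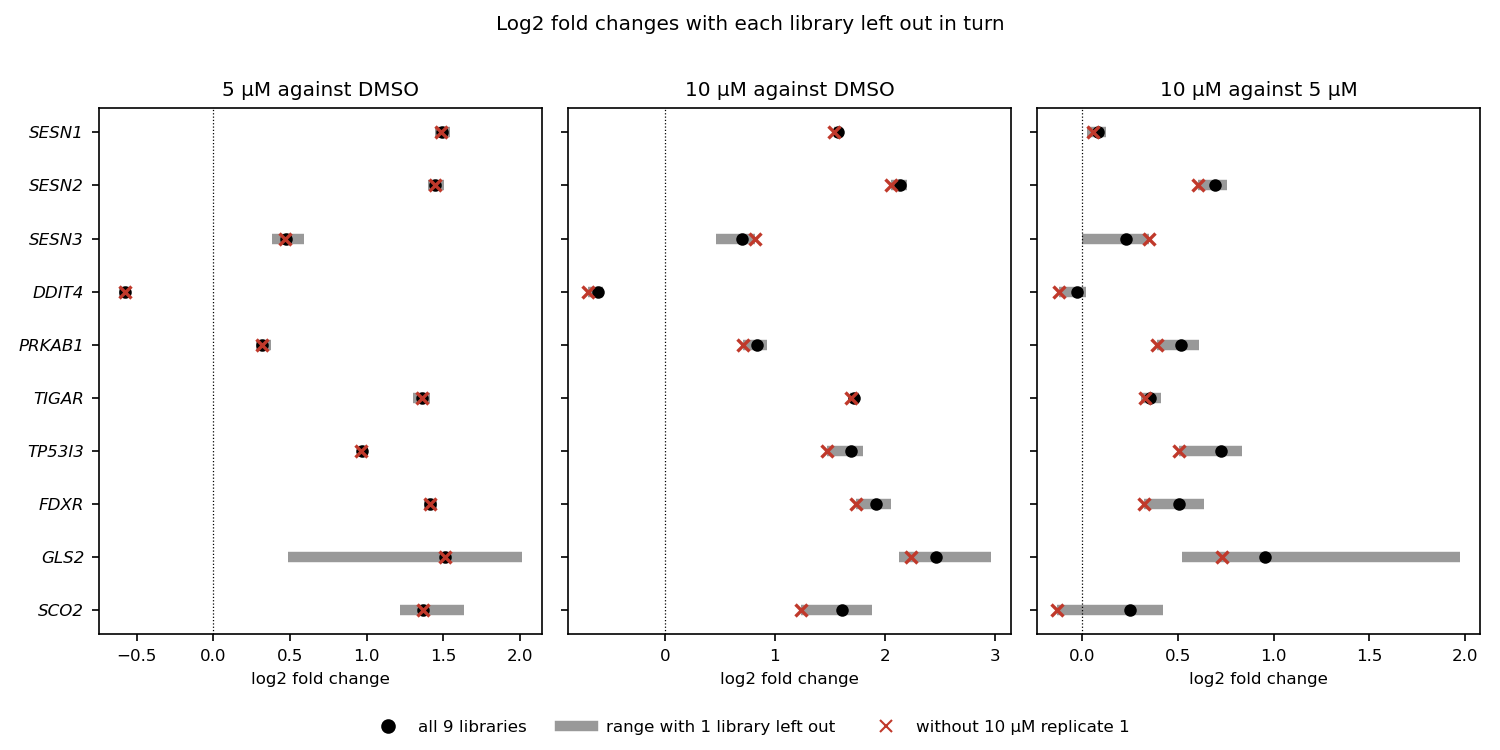
Log2 fold change (x axis) of each gene in the 3 comparisons with all 9 libraries (black point), its range with each library left out in turn (grey bar) and its value without 10 µM replicate 1 (red cross). The 9 rises and the DDIT4 fall at 10 µM kept their sign in every case, whereas the 10 µM against 5 µM values of SESN3, DDIT4 and SCO2 crossed 0.

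Genes of the pathways around the 10 genes were counted in lists written from general knowledge, with earlier results of these data known. In the amino acid sensing arm of mTORC1, which the sestrins restrain, 17 genes were tested. At 5 µM 1 of them fell (NPRL3) and none rose. At 10 µM 4 rose (GATSL2, SEC13, RRAGC and FLCN) and 3 fell (GATSL3, NPRL3 and RRAGD), the members other than RRAGC and FLCN being named after their values were seen. Over all genes tested, 4.40% were called higher and 5.81% lower at 5 µM. At 10 µM 16.4% were called higher and 18.0% lower, so 4 and 3 of 17 are near the background. RRAGC, a Rag GTPase that brings mTORC1 to the lysosome, was at 38.6 ± 1.59 CPM in DMSO, 43.7 ± 1.75 at 5 µM and 59.0 ± 5.70 at 10 µM (SD, n = 3; log2 fold change at 10 µM 0.61, SE 0.09, edgeR adjusted p = 0.000545). FLCN, which activates the RagC and RagD GTPases, was at 17.9 ± 1.17, 17.1 ± 0.411 and 27.2 ± 1.92 CPM (0.60, SE 0.09, edgeR adjusted p = 0.000678). RRAGC and FLCN were also the 2 members called between the doses, both higher at 10 µM, as were 2.87% of all genes tested. The list's median was −0.04 on the log2 scale at 5 µM, and 0.06 at 10 µM.

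Of the mTOR complexes and the TSC complex, the route of DDIT4, 13 genes were tested and none was called at 5 µM, where 4.40% and 5.81% of all genes were called higher and lower. TSC2 fell at 10 µM (131 ± 4.55 CPM in DMSO, 107 ± 12.5 at 10 µM, log2 fold change −0.29, SE 0.09, edgeR adjusted p = 0.0271), and was also lower than at 5 µM (edgeR adjusted p = 0.0460). AKT1S1, the PRAS40 subunit of mTORC1, had a log2 fold change of 0.33 at 10 µM (edgeR adjusted p = 0.0668). Of 7 AMPK subunits and upstream kinases, none was called at 5 µM. At 10 µM PRKAB2 and PRKAG1 rose and CAMKK2 fell, PRKAG1 being named after its value was seen. Over all genes tested, 16.4% were called higher and 18.0% lower at 10 µM. The falls, 1 of 13 genes in the list with TSC2 and 1 of 7 here, are not above that background. PRKAB2, the other beta subunit beside PRKAB1, was at 31.9 ± 1.48, 40.4 ± 1.32 and 53.2 ± 9.08 CPM in DMSO, 5 µM and 10 µM (log2 fold change 0.74 at 10 µM, SE 0.12, edgeR adjusted p = 0.00113). CAMKK2, a kinase that activates AMPK, was at 36.0 ± 1.38, 32.6 ± 1.15 and 25.3 ± 5.43 CPM (−0.51, SE 0.14, edgeR adjusted p = 0.0184). Both beta subunits of AMPK were higher at 10 µM and neither was called at 5 µM.

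Paralogues and partners of the metabolic genes numbered 12 tested. At 5 µM 1 fell (PFKFB4) and none rose, and at 10 µM 6 rose and 1 fell. Over all genes tested, 4.40% were called higher and 5.81% lower at 5 µM, and 16.4% and 18.0% at 10 µM. The 1 of 12 lower is near that background at 5 µM and below it at 10 µM. PFKFB4, a kinase and phosphatase that sets the level of fructose-2,6-bisphosphate, the substrate of TIGAR, went from 179 ± 5.06 CPM in DMSO to 103 ± 7.03 at 5 µM and 66.5 ± 4.10 at 10 µM. Its log2 fold change was −0.80 at 5 µM (edgeR adjusted p = 0.000264) and −1.43 at 10 µM (edgeR adjusted p = 1.44e-06). FDX1L, the mitochondrial ferredoxin FDX2 that FDXR can reduce, was at 16.5 ± 0.291, 24.0 ± 1.41 and 35.0 ± 10.7 CPM, and rose at 10 µM (log2 fold change 1.08, SE 0.18, edgeR adjusted p = 0.00126). Of 10 other metabolic p53 targets, 3 rose at 5 µM (RRM2B, PHLDA3 and TP53INP1, PHLDA3 being named after its value was seen). At 10 µM 5 of the 10 rose and 1 fell, and 1 of 10 lower is below the 18.0% of all genes tested. RRM2B, a p53-inducible ribonucleotide reductase subunit, went from 64.2 ± 1.55 CPM to 154 ± 4.68 and 173 ± 34.6 (log2 fold change 1.26 and 1.43, edgeR adjusted p = 0.000352 and 3.18e-05). TP53INP1, a stress-induced regulator of p53, went from 7.99 ± 0.158 CPM to 22.8 ± 1.49 and 27.4 ± 6.89 (1.51 and 1.78, edgeR adjusted p = 0.000561 and 4.71e-05). The median of these other metabolic targets was 0.34 at 5 µM and 0.58 at 10 µM.

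**Figure D4:**
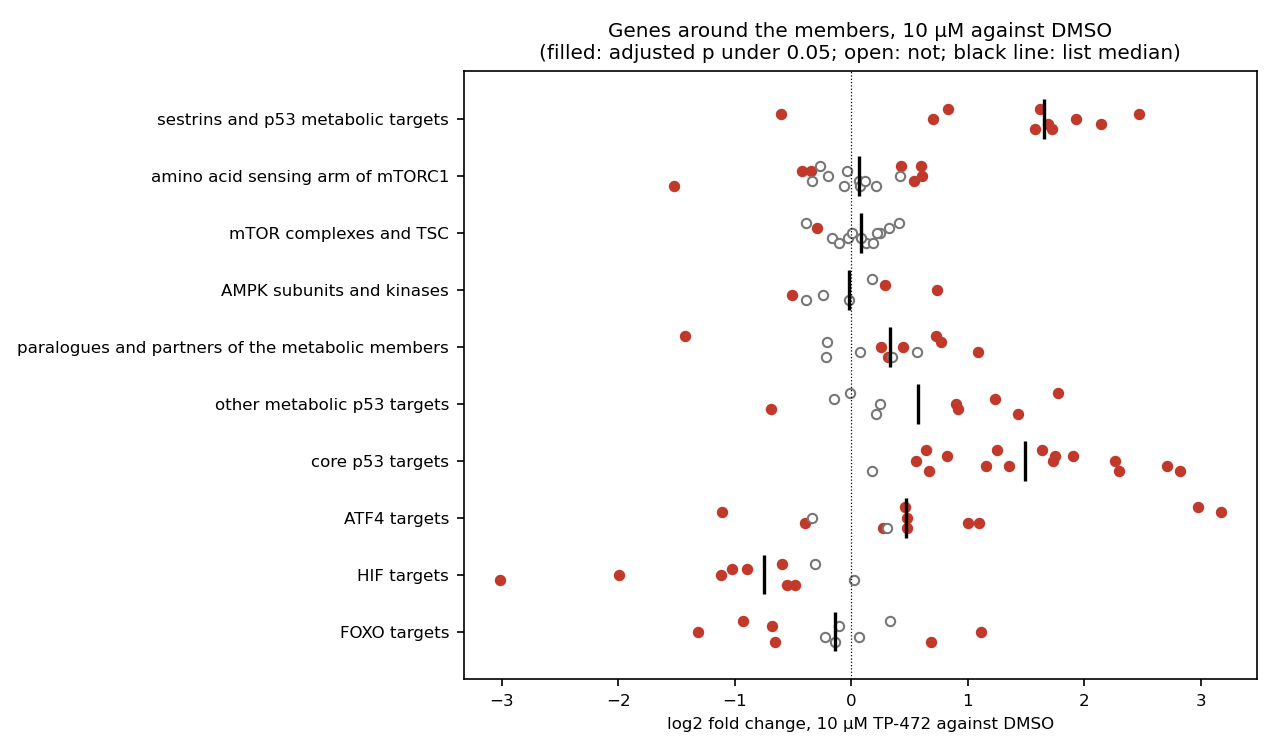
Log2 fold change at 10 µM against DMSO (x axis) for the 10 genes and for each of the 9 surrounding lists (rows), with filled points at an adjusted p under 0.05, open points otherwise and a black line at the list median. The medians were 1.65 for the 10 genes, 1.49 for core p53 targets, 0.47 for ATF4 targets and −0.74 for HIF targets.

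The 10 genes are known targets of different transcription factors, and the other known targets of each were counted beside them. Of 16 core p53 targets, 15 rose at each dose, with a list median of 1.005 on the log2 scale at 5 µM and 1.49 at 10 µM. The share of all genes tested called higher was 4.40% at 5 µM and 16.4% at 10 µM. CCNG1, named after its value was seen, was not called at either dose. MDM2, the ubiquitin ligase of p53, went from 102 ± 3.21 CPM to 339 ± 6.01 and 669 ± 63.9. BTG2, an antiproliferative p53 target, went from 20.9 ± 0.400 CPM to 72.3 ± 2.34 and 100.3 ± 3.74. Between the doses 8 of the 16 rose and none fell, with a list median of 0.29 on the log2 scale. Over all genes tested, 2.87% were called higher between the doses. MDM2 and BTG2 were among the 8, and like SESN2 were higher at 10 µM than at 5 µM (0.98 and 0.47, edgeR adjusted p = 0.000115 and 0.00279).

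Of 12 ATF4 targets, 2 rose and 2 fell at 5 µM, 8 rose and 2 fell at 10 µM, and 7 rose and none fell between the doses. Over all genes tested, 4.40% were called higher and 5.81% lower at 5 µM, and 16.4% and 18.0% at 10 µM. Between the doses the shares were 2.87% and 5.53%. The 2 of 12 lower at 10 µM are near the background. The 2 that rose at 5 µM were DDIT3 and STC2 and the 2 that fell PHGDH and VLDLR, of which DDIT3 alone was named by rule. The list's median log2 fold change was 0.01 at 5 µM, 0.47 at 10 µM and 0.58 between the doses. DDIT3, the transcription factor CHOP, was at 9.67 ± 0.845 CPM in DMSO, 16.1 ± 0.775 at 5 µM and 76.2 ± 22.9 at 10 µM. CHAC1, which degrades glutathione, was at 3.17 ± 0.626, 4.69 ± 0.774 and 28.5 ± 7.02 CPM. Their log2 differences between the doses were 2.24 and 2.60 (edgeR adjusted p = 0.000128 for each), beside 0.69 for SESN2, 0.08 for SESN1 and −0.03 for DDIT4.

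Of 10 HIF targets, none rose, 7 fell at 5 µM and 8 at 10 µM, with median log2 fold changes of −0.67 and −0.74, beside −0.58 and −0.61 for DDIT4. Of all genes tested, 4.40% were called higher and 5.81% lower at 5 µM, and 16.4% and 18.0% at 10 µM. NDRG1, a stress-responsive growth regulator, went from 509 ± 6.68 CPM to 209.9 ± 3.72 and 128 ± 2.66 (log2 fold change −1.28 and −1.99, edgeR adjusted p = 3.62e-06 and 4.81e-08). CA9, a carbonic anhydrase that marks hypoxic cells, went from 81.5 ± 1.97 CPM to 32.5 ± 1.76 and 10.1 ± 1.52 (−1.33 and −3.02, edgeR adjusted p = 6.73e-05 and 1.61e-07). Between the doses 5 of the 10 HIF targets fell and 5 were not called, with a list median of −0.28. Over all genes tested, 5.53% were called lower there. NDRG1 and CA9 were among the 5 that fell further (edgeR adjusted p = 0.000128 and 4.06e-05). DDIT4, like the other 5, was not called between the doses.

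Of 11 FOXO targets, the list to which SESN3 belongs by its regulation, 1 rose and 2 fell at 5 µM (CITED2, and TXNIP and CCNG2) and 2 rose and 4 fell at 10 µM. Over all genes tested, 4.40% and 5.81% were called higher and lower at 5 µM, and 16.4% and 18.0% at 10 µM, so 2 of 11 higher at 10 µM is near the background. TXNIP was named after its value was seen. CCNG2, an unconventional cyclin, went from 43.3 ± 1.47 CPM to 25.7 ± 1.14 and 17.4 ± 0.233 (log2 fold change −0.75 and −1.31, edgeR adjusted p = 0.000280 and 1.73e-06). CITED2, a transcriptional coregulator, went from 27.4 ± 1.45 CPM to 37.2 ± 0.674 and 59.2 ± 4.97 (0.44 and 1.11, edgeR adjusted p = 0.00970 and 1.05e-05). The list's median was −0.18 at 5 µM and −0.14 at 10 µM, beside 0.47 and 0.70 for SESN3.

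The genes closest in pattern to each sestrin were taken as those with the smallest root mean square difference of centred log2 CPM over the 9 libraries, among the 13669 genes that averaged 1 CPM or more. For SESN1 they were ACTA2 (0.119), EDA2R (0.125) and CYFIP2 (0.127), with EDA2R for example going from a mean of 11.9 CPM in DMSO to 34.4 at 5 µM and 37.0 at 10 µM. EDA2R is also in the list of core p53 genes. For SESN2 they were NR4A1 (0.0999), with means of 30.0, 71.8 and 120 CPM, and HIST2H2AA3 and HIST2H2AA4 (0.139 each). The last 2 are near-identical histone gene copies with the same values in the table, so their counts are uncertain. For SESN3 they were BSN (0.115), MCC (0.120) and ZNF567 (0.128), with log2 fold changes of 0.81, 0.65 and 0.51 at 10 µM.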

How the data were processed

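mRNA of A375 cells was sequenced in 9 libraries, 3 per group (DMSO, 5 µM and 10 µM TP-472). The authors deposited expected counts per gene symbol, not scaled to library size; the submitters' processing notes name RSEM 1.2.15, Bowtie2 2.1.0 and hg38, and give no annotation or filter. The methods name oligo-dT beads and the series design ribosomal depletion; which applies could not be settled.

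Expected counts were rounded and tested with edgeR 4.0.16 in R 4.3.3 (TMM, filterByExpr, quasi-likelihood F test, 1 fit of 3 groups, Benjamini-Hochberg over 16417 genes; SE is the log2 fold change over the square root of F). Libraries held 42483091 to 51298130 counts. The 10 genes, the lists and the rule for naming genes (all 10 genes, the 2 members of each list with the smallest p at 10 µM, the 3 nearest patterns per sestrin) were chosen with earlier results of these data known. No set test was run. The results of 2 list genes are not reported here, and their lists were counted without them. Coordinates and overlaps are from GENCODE 29. BMT2 was not found, and CASTOR1, CASTOR2 and FDX2 were matched as GATSL3, GATSL2 and FDX1L. Replicates differed by more than sampling noise, so none was merged. The test was checked on simulated counts. Alternatives used DESeq2 1.42.0 and limma 3.58.1 among others. Tables were made with Python 3.11.15.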

Additional observations from a re-analysis of the deposited data

How the results depend on the processing

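The 10 genes were recomputed under 20 alternatives: other scaling, filters and tests, a fold of at least 1.5 as well, only the 2 groups compared, a replicate block, leaving out each library and, chosen after seeing the data, removal of a trend with length and GC content. Of 600 values, 551 kept their direction and side of the threshold, 39 lost the call, 4 gained it and 6 changed sign. Of the 10 genes, 7, 10 and 5 were called at 5 µM, at 10 µM and between the doses, with 6 to 9, 8 to 10 and 1 to 5 when 1 library was left out. Between the doses 2 were called with a fold of at least 1.5 and 1 with only the 2 groups. The values that changed sign were all between the doses: DDIT4 with upper-quartile factors (0.0044) and without 1 library (−0.12 to 0.021), SESN3 without 1 library (−0.0019 to 0.35) and SCO2 without 1 library (−0.13 to 0.42). At 5 µM DDIT4 was not past a fold of 1.5.

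Over all genes, 1676, 5634 and 1379 were called in these comparisons. DESeq2 called 2676 at 5 µM and 2462 between the doses. A fold of at least 1.5 left 799, 3137 and 658. Fits of only the 2 groups called 6331 at 5 µM and 335 between the doses. Leaving out 1 library gave 673 to 5721, 3772 to 8170 and 543 to 4050, the highest in each case without 10 µM replicate 1. With the length and GC trend removed, the split between the doses was 1012 higher and 891 lower, against 471 and 908, and at 10 µM 3562 higher and 2685 lower, against 2687 and 2947; the causes of these moves were not tested.

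Replicate numbers did not pair the libraries: same-numbered libraries of different groups had correlated deviations of −0.0357 to 0.0407. The replicate block gave 1260, 5312 and 990 genes, and 7, 10 and 4 of the 10 genes, PRKAB1 losing its call between the doses (edgeR adjusted p = 0.0520). GLS2 had 5 to 90 expected counts per library; how far depth limits its values was not tested.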
